A study of Mus musculus with 221 samples.

Results

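The genes described here code for the proteins of the cytosolic ribosome, in single cells of the mouse neocortex shortly before birth. They are the symbols of the Rps, Rpl, Rplp and Rpsa families whose value lay above the lowest value of the cell in at least 110 of 221 cells. Of 23244 features in the table, 80 had such a symbol and 74 passed: 30 of the small subunit (Rps and Rpsa) and 44 of the large subunit with its stalk (Rpl and Rplp). The limit corresponds to 49.8% of cells. Just inside it lay Rpl30 (65.6% of cells), Rpl12 (68.8%) and Rps15a (74.7%). Just outside lay Rps12 (48.4%), Rps29 (47.5%) and Rpl26 (30.3%). The paralogs Rpl10l, Rpl39l and Rpl3l were above the lowest value in 0 cells.

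Each ribosome holds its core proteins in fixed proportion, and cells make many ribosomes when they grow and divide. The mRNAs of these proteins start with a run of pyrimidines, the terminal oligopyrimidine tract, through which the mTOR pathway controls their translation as a group. A few members have a paralog that can take their place. Rps27l, the paralog of Rps27, is known as a target gene of the tumour suppressor p53.

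Cells came from 2 independent pools of C57BL/6J embryos at stage E18.5, each made from the medial neocortices of 8 embryos. Pool 2 gave 99 of the 221 cells and pool 1 the others; no cell was treated, and the cell names carry a letter A or B whose meaning the labels do not give. Cells were captured on a microfluidic chip, and full-length cDNA was sequenced. The pool is the replicate, so each class has n = 2, and the animals of a pool cannot be told apart.

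Classes were built from 60 marker genes that include no ribosomal protein gene, and they carry "-like" because they rest on transcripts alone. The progenitor-like class held 40 cells (22 in pool 1 and 18 in pool 2), the excitatory neuron-like class 148 (84 and 64) and the interneuron-like class 27 (16 and 11). Another 6 cells took no name. The progenitor-like class joined 18 intermediate progenitor-like cells, led by Eomes and Neurog2, with 22 radial glia-like cells. The latter came from 2 clusters, one of 7 cells led by Id1 and Olig1 and one of 15 led by Aldoc and Hopx. All 12 radial glia markers were above the lowest value in at least 50% of progenitor-like cells, and 8 of 13 interneuron markers in interneuron-like cells. The excitatory class was less clean: 5 of its 10 markers passed that level, against 6 in progenitor-like cells. Neurod6, a gene of excitatory neurons, reached 100 TPM in 30 of the 40 progenitor-like and 13 of the 27 interneuron-like cells. Endothelial markers were at the lowest value in every cell of the 3 classes.

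Values are TPM, transcript shares that are scaled for transcript length and add up to 1000000 in each cell. They give a gene's part of a cell's transcripts, not the number of its mRNAs. All 92 spike-in controls lay at the lowest value, so the amount of RNA per cell is unknown. That lowest value, called the floor below, was 1.33 to 3 TPM. Between 2146 and 6727 genes per cell were above it, with medians of 4636 in progenitor-like, 4021 in excitatory neuron-like and 3409 in interneuron-like cells.

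The sequences around the transcription start were compared with those of all genes. RefSeq (GRCm38.p6) gave start windows for 54 of the 74 genes, 65 windows in all because some genes have several starts. A run of at least 8 bases that are all C or T, within 30 bases of the start on the gene's strand, was present in 32 of these 65 windows (49.2%) and in 22.9% of all 32841 windows. CCGGAAG, the core letters bound by ETS factors, stood on either strand of the 300-base window in 35.4% of the members' windows against 8.86% of all. For AAGATGGC, the letters of YY1, these shares were 10.8% and 2.75%, for GGGCGG, the letters of Sp1, 63.1% and 35.7%, and for TATAAA 7.69% and 13.6%. The reverse complement of CCGGAAG begins with pyrimidines, so such a match can overlap a run of C and T. A match is only a description of letters. The windows below were picked for long runs (Rpl7a, the longest, and Rpl34, whose run is as long as that of Rpl27a), for high level (Rpl41, Rps9 and Rpl4) and for the pair Rps27 and Rps27l, with capitals marking the longest run of C and T.
Rpl7a (chr2:26910788-26910817, plus strand): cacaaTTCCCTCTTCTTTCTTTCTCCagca
Rpl34 (chr3:130730330-130730359, minus strand): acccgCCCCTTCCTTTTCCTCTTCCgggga
Rpl4 (chr9:64173361-64173390, plus strand): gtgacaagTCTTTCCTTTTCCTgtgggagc
Rps9 (chr7:3704024-3704053, plus strand): caaccgccttgTCTCTCTTTgtctcgggcc
Rps27 (chr3:90213632-90213661, minus strand): ttccgctttcgCTCCTTTCCggcggtgacg
Rps27l (chr9:66946053-66946082, plus strand): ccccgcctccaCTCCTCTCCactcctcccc
Rpl41 (chr10:128549180-128549209, minus strand): tcgagcagccccgCCCTaagggacgacaca
The run was 21 bases long at Rpl7a, 20 at Rpl34, 14 at Rpl4 and 9 at Rps9, Rps27 and Rps27l. At the start listed for Rpl41, the most abundant member, it was 4 bases long. Counted from the listed start, the runs of Rps27l (-22), Rpl4 (-18) and Rpl41 (-28) began and ended before it. They thus lie outside an mRNA that begins there. Those of Rpl7a (-14), Rpl34 (-17), Rps9 (-6) and Rps27 (-2) ran across the start. Where runs tied, the first was marked, and the Rps27l window holds another of 9 bases in lower case. At another listed start of Rps27l the longest run was 5 bases.

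The members differed widely in level. Their mean TPM over all cells ran from 7.18 (Rps15a) to 2678 (Rpl41), with a median of 144. Rpl41, which codes for a very short basic peptide of the large subunit, was the highest. Among the other abundant members, Rps9, a core protein of the small subunit, had a mean of 1433 TPM and Rpl4, a core protein of the large one, had 885 TPM. The 5 genes of highest mean made up 34.5% of the summed TPM of the family, 14 genes had a mean of 500 TPM or more, and 13 had a mean under 50. Every one of the 221 cells was above the floor for 20 members, and 68 members were above it in at least 200 cells.

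Part of a short read from these genes can come from a processed pseudogene, because ribosomal protein mRNAs have left many copies in the genome. For each member the principal GENCODE vM21 transcript was split into all stretches of 50 bases, and those also found in a transcript of another annotated gene were counted. The median share was 44.3% over the 74 members. It was 98.6% for Rps27 and 22.4% for Rps27l. The 30 members with at least 50% had a median level of 115.5 TPM (23.1 to 625), and the 6 members under 10% one of 447 TPM. Across the 74 genes, which are no replicates, Spearman's rho between the share and the level was -0.21. A share also depends on the length of the transcript taken. Rps15a was scored on 5179 bases, 393 of them coding, with 322 of 5130 stretches shared (6.28%). Rps20 (3706 bases, 7.44%) and Rpl22 (2051 bases, 5.19%) were also scored on long transcripts. A small share can thus go with many shared stretches. How the counting treated reads with several matches is not given in the sources used here. Levels of members with large shares or many shared stretches are therefore uncertain. Unannotated copies are not in this measure.

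**Figure D1:**
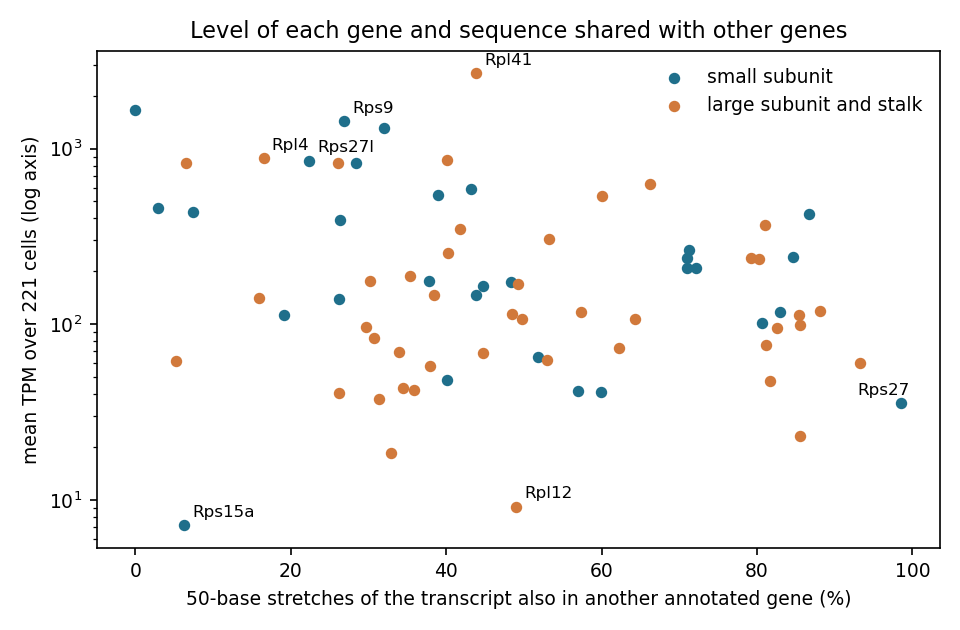
Each point is 1 of the 74 genes, with the share of its transcript's 50-base stretches found in another annotated gene (percent, x axis) and its mean TPM over 221 cells (log y axis), coloured by subunit. No gene with 50% or more exceeded 625 TPM. Rps15a, at 7.18 TPM, had a share of 6.28% on a transcript of 5179 bases, 393 of them coding.

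As a whole the family made up a small and similar part of the transcripts in all 3 classes, somewhat more in progenitor-like cells. Its summed share of TPM was 2.41% in pool 1 and 2.82% in pool 2 for progenitor-like cells (2.62% ± 0.293, SD over n = 2 pools). In excitatory neuron-like cells it was 2.2% and 2.3% (2.25% ± 0.0733). In interneuron-like cells it was 2.36% and 2.21% (2.29% ± 0.104). Progenitor-like cells were above excitatory neuron-like cells in both pools, by 0.21 and 0.52 percentage points. Interneuron-like cells were above them in pool 1 (0.16) and below them in pool 2 (-0.09). With 2 pools against 2, the smallest two-sided exact permutation p is 0.333, so no test of these shares was made. Both subunits took similar parts: the small subunit held 1.16% and 1.45% of TPM in progenitor-like cells, the large one 1.25% and 1.38%. Excitatory neuron-like cells had 1.10% and 1.13% for the small and 1.10% and 1.17% for the large subunit.

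Within the progenitor-like class the share was not uniform. It was 2.52% and 3.13% in intermediate progenitor-like cells (10 and 8 cells in pools 1 and 2). In the Id1 and Olig1 cluster it was 3.34% and 3.07% (3 and 4 cells), and in the Aldoc and Hopx cluster 1.97% and 2.25% (9 and 6 cells). The first 2 groups lay above the excitatory neuron-like mean in both pools, by 0.33 and 0.83 points and by 1.15 and 0.77 points. The Aldoc and Hopx cluster lay below it in both, by values of -0.23 and -0.05 points. Without its highest cell, at 4.93%, the mean of the Id1 and Olig1 cluster in pool 1 was 2.55%. Of the 6 cells above 3.38%, the highest excitatory neuron-like cell, 3 were intermediate progenitor-like, 2 were of the Id1 and Olig1 cluster, 1 was interneuron-like and 0 were of the Aldoc and Hopx cluster. The split of the radial glia-like cells was looked at after the shares had been seen and is a description with no test.

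**Figure D2:**
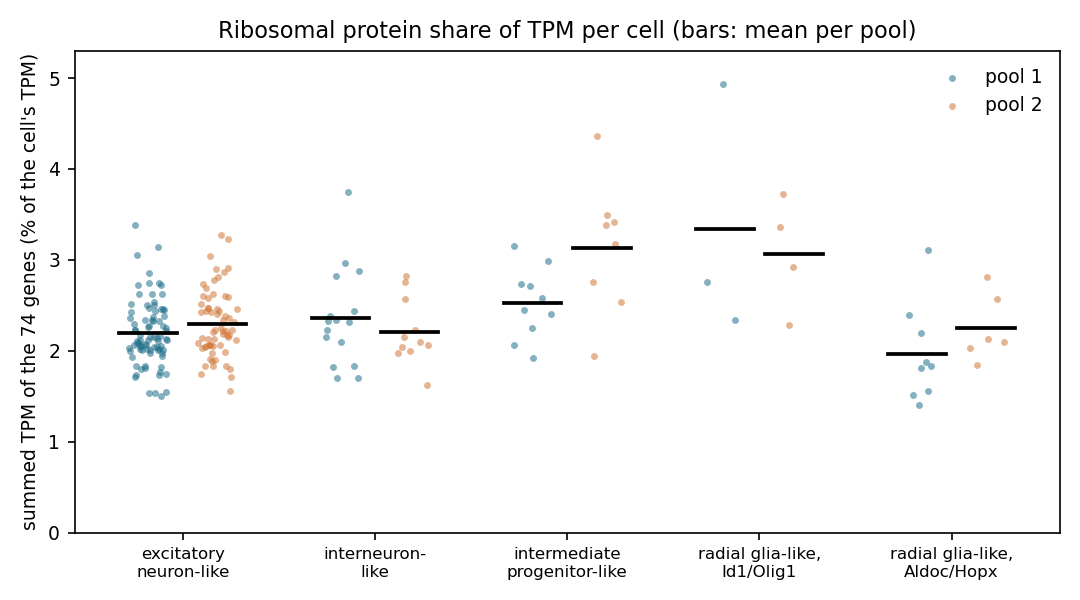
Each point is 1 cell, with the summed TPM of the 74 genes as a percentage of the cell's TPM on the y axis. Cells are split by class or cluster and by pool, and bars are pool means. Pool means ran from 1.97% in the Aldoc and Hopx cluster to 3.34% in the Id1 and Olig1 cluster, and the ranges of the groups overlapped.

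Single members followed this pattern. Of the 74 genes, 52 were higher in both pools in intermediate progenitor-like than in excitatory neuron-like cells (70.3%, against 34.5% of all 10702 genes tested) and 4 were lower in both (5.41%, against 27.2%). In the Id1 and Olig1 cluster 56 were higher in both pools (75.7%, against 22.8% of all genes) and 2 lower (2.70%, against 36.8%). In the Aldoc and Hopx cluster 14 were higher in both (18.9%, against 31.9%) and 27 lower (36.5%, against 29.6%), the last share being near that of all genes. The members' median log2 difference from excitatory neuron-like cells was 0.21 and 0.42 in intermediate progenitor-like cells, 0.64 and 0.38 in the Id1 and Olig1 cluster, and -0.19 and -0.01 in the Aldoc and Hopx cluster (pools 1 and 2). For all genes these medians were 0.11 and 0.02, 0.00 and -0.28, and -0.05 and 0.12. All genes here include those detected in as few as 10 cells, while a member had to be detected in 110. Signs were not counted for other genes under the members' limit, so the part of detection in these contrasts was not tested.

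Cell-cycle transcripts ranked the progenitor groups as the share did in pool 1, but not in pool 2. The mean log2(TPM + 1) of 12 cell-cycle genes was 4.07 and 3.71 in intermediate progenitor-like cells, 4.36 and 5.51 in the Id1 and Olig1 cluster, 3.84 and 4.83 in the Aldoc and Hopx cluster, and 2.04 and 2.10 in excitatory neuron-like cells. Across the 40 progenitor-like cells, which share 2 pools, the summed share and this mean had Pearson's r = -0.06, and the share and the number of genes above the floor had r = -0.21. The Id1 and Olig1 cluster also carried globin transcripts: the median sum of Hba-a1 and Hba-a2 was 38 and 596 TPM, against 3.89 and 4.19 TPM in excitatory neuron-like cells. The part of globin RNA in the share was not tested.

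Genes were then compared one by one with limma on the mean log2(TPM + 1) of each class and pool (6 profiles, 3 residual degrees of freedom), with Benjamini-Hochberg adjustment over all 10702 genes and a call at an adjusted p below 0.05. Between progenitor-like and excitatory neuron-like cells, 0 of 74 members were called, where 3.41% of all genes were. At an unadjusted p below 0.05 the count was 1, where 1756 of all 10702 genes passed. The median member difference was 0.21, against 0.05 over all genes, and 49 members were higher in both pools (66.2%, against 36.9% of all genes). Between interneuron-like and excitatory neuron-like cells, 0 members were called at a background of 0.701%. An unadjusted p below 0.05 was reached by 3 members and by 1187 of all 10702 genes. Here the median member difference was -0.00 and that of all genes -0.08. Between progenitor-like and interneuron-like cells, 1 of 74 members was called (1.35%), at a background of 9.58%. An unadjusted p below 0.05 was reached by 5 members and by 2774 of all 10702 genes. The members' median was 0.16 and that of all genes 0.15. In this last comparison 847 of the 1025 called genes were higher in progenitor-like cells, the class with more genes above the floor. These backgrounds take in genes detected in as few as 10 cells, while a member had to be detected in 110. A fit restricted to the 3274 genes that met the members' own limit called 13, 53 and 364 genes in the 3 comparisons, in this order. Of the members it called 0, 0 and 2. The medians of the 3274 genes were 0.04, -0.32 and 0.35, while those of the members stayed at 0.21, -0.00 and 0.16. The 3 comparisons share their profiles and are not independent. The median SE of a member's difference was 0.43, so differences of the size of these medians could not be called for a single gene.

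**Figure D3:**
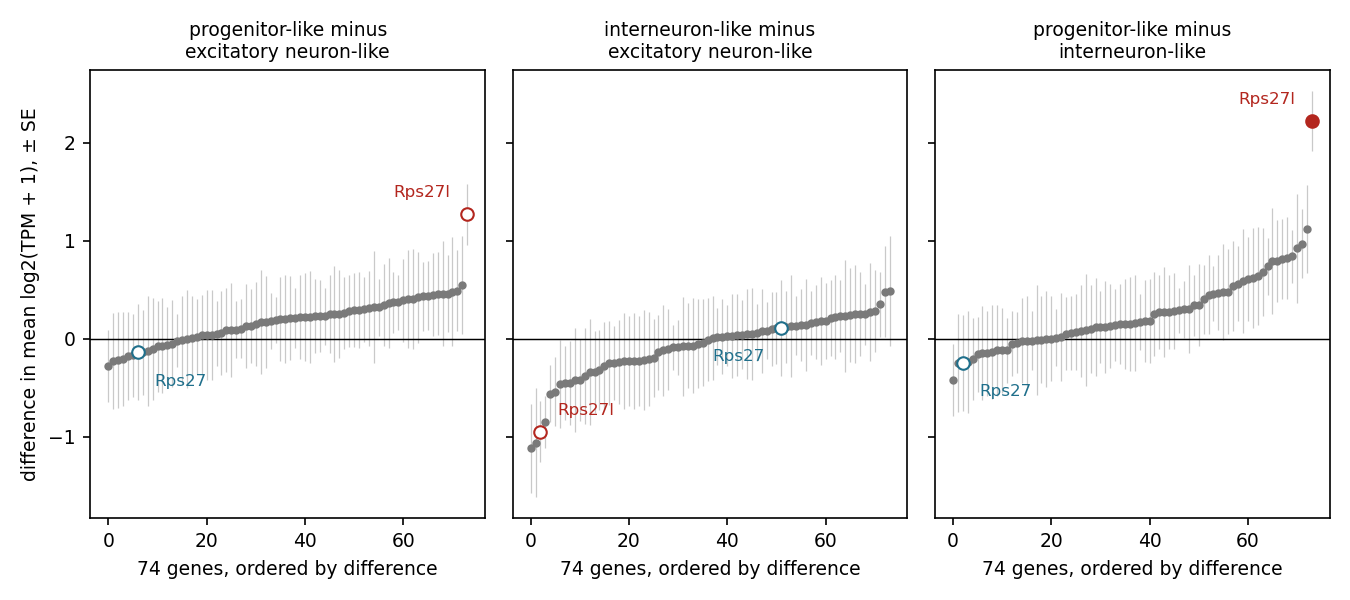
Each point is 1 of the 74 genes with its difference in mean log2(TPM + 1) between 2 classes (n = 2 pools each) and bars of ± 1 SE from limma, ordered by difference; Rps27l and Rps27 are ringed, filled where called. Rps27l lies apart at 2.22 in progenitor-like against interneuron-like cells, while Rps27 is near 0 in all 3 panels.

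The called member was Rps27l (chr9:66946086-66949516, plus strand, GRCm38), which was highest in progenitor-like cells. In TPM its means in pools 1 and 2 were 1133 and 1617 in progenitor-like, 724 and 807 in excitatory neuron-like and 553 and 784 in interneuron-like cells. In progenitor-like cells of pool 1 the lowest, median and highest values were 462, 1032 and 2679 TPM, and in pool 2 they were 321, 1277 and 3906. Excitatory neuron-like cells had 1.83, 625 and 2151 TPM in pool 1 and 1.33, 659 and 3041 in pool 2. Interneuron-like cells had 2.12, 387 and 1482 TPM and 1.81, 674 and 1854. The pool means of progenitor-like cells were thus above all others, but single cells overlapped. All 40 progenitor-like cells were above the floor for Rps27l. So were 80 of 84 and 60 of 64 excitatory neuron-like cells, and 14 of 16 and 9 of 11 interneuron-like cells.

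Against interneuron-like cells the Rps27l difference was 2.22 ± 0.31 on the log2(TPM + 1) scale (SE; limma adjusted p = 0.00340), with 1.99 in pool 1 and 2.44 in pool 2. On the log2 scale of the mean TPM, where the 4 interneuron-like cells at the floor weigh less, it was 1.04 ± 0.24 and was not called (limma adjusted p = 0.0543). In cells with suffix A alone, which leaves 3 and 7 interneuron-like cells, it was 1.82 ± 0.35 (limma adjusted p = 0.0833). Another member, not called either, had the largest difference in those cells, at 2.74. Over 16 alternatives the call held in 14, and the adjusted p ran from 0.00106 to 0.0833. The alternatives with 8 and with 12 clusters gave the same classes as the main fit and so repeat it. They are included in this and every later count of alternatives, where they could not change a call. In the cells above the floor, the mean log2(TPM + 1) of Rps27l was 9.996 and 10.337 in progenitor-like and 8.912 and 9.319 in interneuron-like cells.
Against excitatory neuron-like cells the difference of Rps27l was 1.27 ± 0.31 (limma adjusted p = 0.0513). With the pool as a replicate block this became 1.27 ± 0.34 with a limma adjusted p of 0.0413, and weighting profiles by cell number gave 0.00628. The other 14 of 16 alternatives gave no call, with adjusted p up to 0.293. Interneuron-like against excitatory neuron-like cells gave -0.95 ± 0.31 (limma adjusted p = 0.282).

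Within the progenitor-like class, Rps27l, itself a part of the summed share, was also lowest in the Aldoc and Hopx cluster. It had means of 1257 and 1992 TPM in intermediate progenitor-like cells and 1416 and 2240 in the Id1 and Olig1 cluster. In the Aldoc and Hopx cluster the means were 902 and 702 TPM, near the 724 and 807 of excitatory neuron-like cells. On the log2(TPM + 1) scale this cluster, with every cell above the floor, had means of 9.717 and 9.239. These were above the 8.91 and 8.88 of excitatory neuron-like cells, which include cells at the floor. Excitatory neuron-like cells above the floor had 9.281 and 9.377, and the cluster was below them in pool 2. Without Rps27l the family's share was 2.29% and 2.66% in progenitor-like cells, 2.12% and 2.22% in excitatory neuron-like cells and 2.30% and 2.13% in interneuron-like cells.

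**Figure D4:**
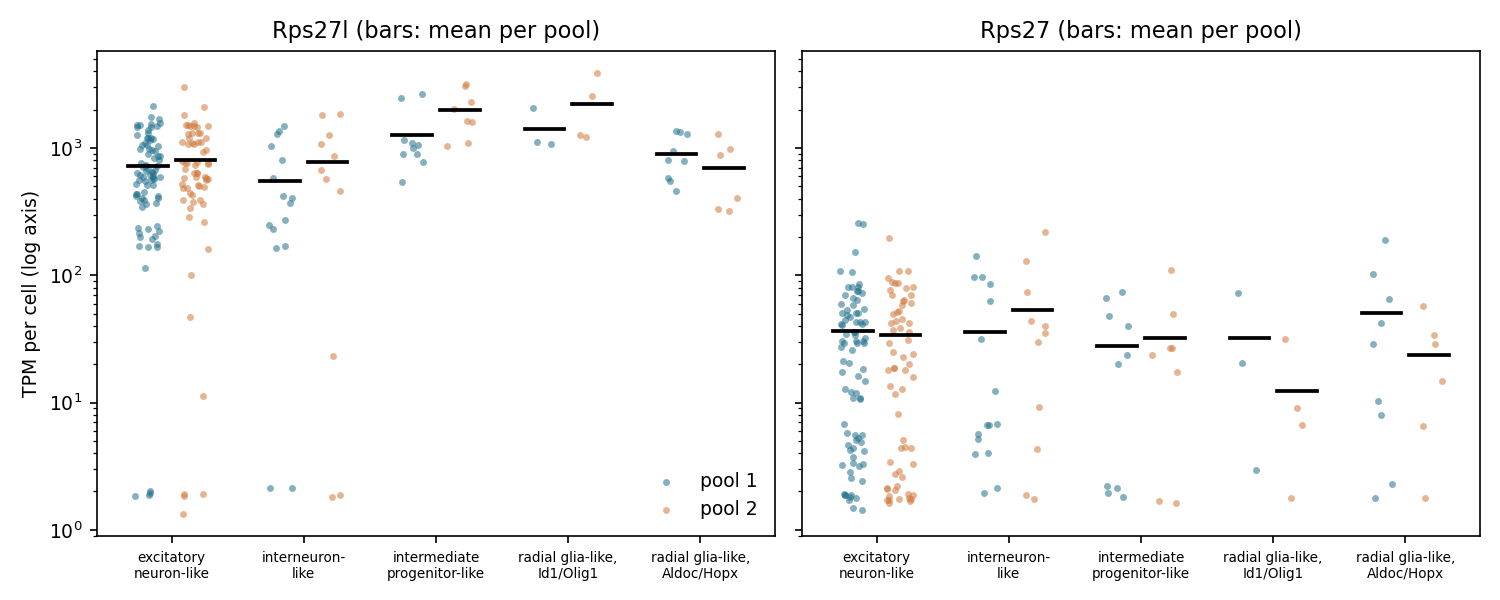
Each point is 1 cell, with the TPM of Rps27l (left) and of its paralog Rps27 (right) on log axes, by class or cluster and pool, with bars for pool means. Rps27l means lie between 1257 and 2240 TPM in the first 2 progenitor groups and between 553 and 902 elsewhere, and all of them are far above those of Rps27.

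Its paralog Rps27 (chr3:90212522-90213651, minus strand, GRCm38) did not share this pattern. The means were 37.6 and 25 TPM in progenitor-like, 36.7 and 34.1 in excitatory neuron-like and 35.8 and 53.7 in interneuron-like cells. Progenitor-like against interneuron-like cells gave -0.25 ± 0.49 (limma adjusted p = 0.803). Over all cells, Rps27l had a mean 24 times that of Rps27, whose transcript is shared almost wholly with other annotated genes, 3 of them pseudogenes. The coding sequences of the pair, from the principal GENCODE vM21 transcripts on GRCm38, are both 255 bases long. They are shown because the 2 genes differed in level and pattern although their proteins are close relatives, with capitals at the 61 bases that differ.
Rps27: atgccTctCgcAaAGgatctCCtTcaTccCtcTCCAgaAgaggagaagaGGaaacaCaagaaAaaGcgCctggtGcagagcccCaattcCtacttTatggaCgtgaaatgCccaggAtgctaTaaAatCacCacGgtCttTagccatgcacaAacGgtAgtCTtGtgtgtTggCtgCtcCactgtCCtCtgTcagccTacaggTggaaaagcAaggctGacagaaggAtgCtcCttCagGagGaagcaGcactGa
Rps27l: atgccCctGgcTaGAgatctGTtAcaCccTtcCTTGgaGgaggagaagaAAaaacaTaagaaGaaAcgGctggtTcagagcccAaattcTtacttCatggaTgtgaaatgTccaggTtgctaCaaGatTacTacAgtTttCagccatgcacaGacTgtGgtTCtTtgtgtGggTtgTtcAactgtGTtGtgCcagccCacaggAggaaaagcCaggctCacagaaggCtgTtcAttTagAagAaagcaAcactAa
The identity was 76.1%, and the longest stretch without a difference was 11 bases, far under the 50 bases used for shared stretches.

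To find members that move apart from their family, each value was also taken relative to the cell's median over the 74 genes. Calls for departures numbered 0 of 74 in progenitor-like against excitatory neuron-like cells (background 2.29%) and 0 in interneuron-like against excitatory neuron-like cells (background 0.813%). At an unadjusted p below 0.05 these counts were 1 and 3, where 1684 and 1012 of all 10702 genes passed. The fit restricted to the 3274 genes under the members' own limit called 13 and 53 genes here, and again 0 members. In progenitor-like against interneuron-like cells 1 member was called, at a background of 7.36% (282 genes in the restricted fit). It was again Rps27l, with a departure of 2.05 ± 0.34 (limma adjusted p = 0.00354). Under the log2 of the mean TPM it was 1.05 (limma adjusted p = 0.0653) and in suffix A cells 1.73 (limma adjusted p = 0.0521). In suffix A cells another member, not called either, had the largest departure, at 2.65. For Rps27l the points below cover all alternatives. The call held in the other 13 of 15 alternatives, and the adjusted p ran from 0.00106 to 0.0653.

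Of the most abundant members, Rpl41, Rps9 and Rpl4 were not called in any of the 3 comparisons. Rpl41 had 3113 and 3085 TPM in progenitor-like cells, 2694 and 2504 in excitatory neuron-like cells and 2829 and 2110 in interneuron-like cells. Its log2 difference between progenitor-like and excitatory neuron-like cells was 0.19 ± 0.23 (limma adjusted p = 0.769). Rps9 had 1513 and 1946, 1316 and 1358, and 1585 and 1467 TPM in the same order of classes. Rpl4 had 978 and 1073, 848 and 954, and 746 and 621 TPM, with progenitor-like cells highest in both pools.

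Other members with a close paralog gave no call. Rpl36a, a protein of the large subunit, had 24.2 and 25.6 TPM in progenitor-like, 23 and 26.9 in excitatory neuron-like and 13.8 and 10.6 in interneuron-like cells, where 17 of 27 cells were above the floor. Against excitatory neuron-like cells the interneuron-like difference was -1.12 ± 0.45 (limma adjusted p = 0.383). Its paralog Rpl36al, outside the symbols of the family, had far higher values, with 787 and 960 TPM in progenitor-like and 843 and 645 in interneuron-like cells. Of the 50-base stretches of Rpl36a, 371 of 434 (85.5%) were also in another annotated gene. Its level, and so the gap to Rpl36al, is therefore uncertain. Rpl36al was called higher in progenitor-like cells by 1.40 ± 0.38 on the log2(TPM + 1) scale (limma adjusted p = 0.0430), but only 6 of 16 alternatives kept the call and its mean TPM in pool 1 was higher in interneuron-like cells. Rpl22, which has a role in T-cell development beyond the ribosome, had 48.6 and 34.1 TPM in progenitor-like and 71 and 59.4 in excitatory neuron-like cells (-0.22 ± 0.49, limma adjusted p = 0.885). Its paralog Rpl22l1 had 127 and 212 against 110 and 123 TPM (0.86 ± 0.58, limma adjusted p = 0.515). Rpl7l1, related to Rpl7, gave a progenitor-like minus excitatory neuron-like difference of 0.43 ± 0.52 on the log2(TPM + 1) scale (limma adjusted p = 0.771). The sequences of these pairs were not aligned with each other, and only the members among them were scored for shared stretches.

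Members varied from cell to cell with little in common. Between a member's log2(TPM + 1) and the log2 summed TPM of the other 73 genes, Pearson's r over 221 cells had a median of 0.24. It was highest for Rpl13 (0.60) and lowest for Rps27 (-0.02), with 0.16 for Rps27l and 0.45 for Rpl41. The cells share 2 pools, and low members lie near the floor, so these are descriptions.

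Genes that work with the ribosome were compared in the same fit, in lists of their own. Of 19 translation factors and related mRNAs with pyrimidine tracts, 0 were called in progenitor-like against excitatory neuron-like cells, where 3.41% of all genes were. In progenitor-like against interneuron-like cells 3 were higher (15.8%, where 9.58% of all genes were called): Eif3f (2.96 ± 0.48, limma adjusted p = 0.00650), Eef1d (2.26 ± 0.50) and Eif4b (1.74 ± 0.49). Eif3f is a subunit of initiation factor eIF3, Eef1d belongs to the nucleotide exchange complex of elongation factor 1, and Eif4b assists the eIF4A helicase. These calls held in 14 of 16, 11 of 16 and 6 of 15 alternatives. Of 28 ribosome biogenesis genes 1 was called (3.57%, under the 9.58% of all genes) in progenitor-like against interneuron-like cells. It was Nop58, a core protein of box C/D small nucleolar particles (2.03 ± 0.57, limma adjusted p = 0.0478). Its mean TPM was 169 in progenitor-like and 160.5 in interneuron-like cells. In pool 1 it was lower in progenitor-like cells (143 against 145). Only 4 of 16 alternatives kept the call, among them the repeats with 8 and 12 clusters, and the lowest difference was 0.06. Of 16 regulators of the mTOR and Myc pathways 0 were called in any of the 3 comparisons, where 3.41%, 0.701% and 9.58% of all genes were. In a list this short, 0 calls cannot be told apart from these shares. At an unadjusted p below 0.05 there were 1, 1 and 2, against 1756, 1187 and 2774 of all 10702 genes. Interneuron-like against excitatory neuron-like cells gave 0 calls in all of these lists, where 0.701% of all genes were called. At an unadjusted p below 0.05 were 3 translation factors and 2 biogenesis genes, against 1187 of all 10702 genes.

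Mitochondrial ribosomal proteins, which form a separate ribosome, had more calls in one comparison than the cytosolic ones; the difference between the lists was not tested. Of 76 such genes, 14 were higher in progenitor-like than in interneuron-like cells and 0 lower (18.4% called, where 9.58% of all genes were and 847 of those 1025 genes were higher), with a median difference of 1.05 against 0.15 for all genes and 0.16 for the cytosolic members. The largest were Mrps28 (3.43 ± 0.58, limma adjusted p = 0.00696; 226 against 34.2 TPM), Mrpl24 (3.02 ± 0.51), Mrpl17 (2.57 ± 0.45) and Mrps23 (2.50 ± 0.54). These calls held in 14, 13, 13 and 10 of 16 alternatives, and the lowest differences were 2.02, 0.79, 1.40 and 0.76. Against excitatory neuron-like cells Mrpl17 alone was called (2.05 ± 0.45, limma adjusted p = 0.0339), in 6 of 16 alternatives. This was 1.32% of the list, where 3.41% of all genes were called. The median was 0.40, against 0.05 for all genes. Interneuron-like against excitatory neuron-like cells had a median of -0.60 and 0 calls, where 0.701% of all genes were called. At an unadjusted p below 0.05 were 17 of the 76 genes, against 1187 of all 10702. Interneuron-like cells had the fewest genes above the floor, and the part of detection in these differences was not tested.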

How the data were processed

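The deposited table holds the authors' TPM for each gene in each cell. The submitters' processing notes name the build mm10 and the tools Cufflinks 2.2.1, Bowtie2 2.2.6 and TopHat2 2.0.14; the annotation, and the treatment of reads with several matches, are not given in the sources used here. No read numbers are in the table, so the depth per cell is unknown. A second deposited table holds the same TPM transposed and was not used. The members, gene lists and markers were chosen with earlier results of these data known. Cells were clustered (Ward linkage, 10 principal components of the standardized markers, 10 clusters). A cluster took the class of highest marker score if at least 3 markers of that class exceeded the floor in 50% of cells and, among the 10 leading genes, no other class had more markers. This naming rule, the cell-cycle genes, the margin of the marker gate and the minimum of 2 cells for suffix A units were set after the clusters had been seen. No doublet caller was run.

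Mean log2(TPM + 1) per class and pool (at least 5 cells) was fitted with limma 3.58.1 in R 4.3.3 (trend and robust eBayes, two-sided, Benjamini-Hochberg) over genes that exceeded the floor in 10 or more cells, without markers and spike-ins. The script was tested on simulated data. Classes of a pool come from the same embryos, which pairs them through the pool number; pool deviations correlated by 0.013 to 0.059 across all genes between classes and by 0.350, 0.261 and -0.039 across the members (progenitor-like with excitatory neuron-like, interneuron-like with excitatory neuron-like, progenitor-like with interneuron-like), and the main fit has no block. Other work used Python 3.11.15. Named were the 5 members of highest mean, called members (up to 8 each way), members at the 110-cell limit, those with a listed paralog, and up to 4 called genes per other list; genes of the sequence and correlation paragraphs were chosen after their values were seen. Alternatives changed the pseudocount, filter, floor, scale, normalization, clusters, gate, units, cells and weights, and left out each pool. Some members are not reported here by name.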

Additional observations from a re-analysis of the deposited data

Results flagged for a closer look

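The summed share of the ribosomal protein genes differed between progenitor groups set against the same excitatory neuron-like cells. Intermediate progenitor-like cells were above those neurons in both pools. The Aldoc and Hopx cluster was below them in pool 1 (-0.23 percentage points) and nearly level with them in pool 2 (-0.05). The differences of these 2 groups were 0.72 points apart (mean of 2 pools). For the Id1 and Olig1 cluster, also above in both pools, the gap to the Aldoc and Hopx cluster was 1.10 points. Neither gap was tested. The Id1 and Olig1 cluster has 7 cells, and 1 cell of pool 1 at 4.93% raises its mean there from 2.55% to 3.34%.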

How the results depend on the processing

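With the pool as a replicate block, and with profiles weighted by cells, 1 member (Rps27l) was called in progenitor-like against excitatory neuron-like cells, where the main fit called 0. For departures from the family median, weighting alone gave 1 call there. In progenitor-like against interneuron-like cells the main count of 1 became 2 when only genes detected in 110 or more cells were tested, 0 with the log2 of the mean TPM and 0 with suffix A cells, and for departures 0 and 0 with these last 2 settings; the other settings kept 1. The cause was not tested. The block changed no other call of a member. In interneuron-like against excitatory neuron-like cells the count was 0 under every setting run. Over all genes, calls ranged from 0 (suffix A) to 1037 (weighted) against 365 in the main fit, from 0 (log2 of the mean TPM) to 173 (weighted) against 75, and from 0 (suffix A) to 1402 (floor subtracted) against 1025; for departures from 0 (intermediate progenitor-like cells only) to 871 against 245, from 0 (without cells high in Neurod6) to 178 against 87, and from 157 to 1254 against 788. With 1 pool left out, the members' median difference was 0.11 to 0.29 (progenitor-like against excitatory neuron-like), -0.12 to 0.04 (interneuron-like against excitatory neuron-like) and -0.02 to 0.38 (progenitor-like against interneuron-like), and the share difference 0.21 to 0.52, -0.09 to 0.16 and 0.05 to 0.61 percentage points. Without cells high in Neurod6 (10 progenitor-like cells left) the share difference was 0.68 points against excitatory neuron-like and 0.75 against interneuron-like cells, where all cells gave 0.37 and 0.33. Radial glia-like cells alone gave 0.19 and 0.16, and intermediate progenitor-like cells alone, a setting chosen after seeing the data, 0.58 and 0.54. Calls without Neurod6-high progenitor-like cells could not be fitted (under 5 cells in a pool), and leaving out mitochondrial features was not run because the table lists 0 of them.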
